A study of Mus musculus with 13 samples.

Results

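Type 2 activation of macrophages was described from 6 genes, Retnla, Arg1, Chil3, Il4ra, Pdcd1lg2 and Tgm2, taken by symbol from the 48587 gene symbols of a bulk RNA sequencing count table of the mouse nervous system. The libraries were total RNA of macrophages from sciatic nerve (4 libraries), macrophages from optic nerve (4) and microglia from brain (5), all from C57BL/6J mice. The labels name no allele, treatment or injury for these libraries, and the sources used here do not state the age of the mice, the sorting gate or any pooling of animals. The labels do not say that the libraries of a tissue came from separate animals, so the p-values measure the spread between libraries, which may be technical.

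Interleukin 4 and interleukin 13 bind receptors that contain the chain encoded by Il4ra, and the receptor signals through Janus kinases to the transcription factor Stat6. In macrophages, this signal is known to raise a set of genes that includes those for the secreted proteins Retnla (also called Fizz1 or RELMalpha) and Chil3 (Ym1), the enzymes Arg1 (arginase 1) and Tgm2 (tissue transglutaminase), and the surface protein PD-L2, which Pdcd1lg2 encodes. These genes are widely used as markers of alternative, or M2, activation of mouse macrophages, in contrast to classical activation by interferon and bacterial products.

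The 6 genes lie on 6 chromosomes of the mouse genome (build GRCm38, GENCODE M21 coordinates, all protein coding). Retnla is at chr16:48842551-48844461 on the plus strand, Arg1 at chr10:24915221-24927484 on the minus strand, and Chil3 at chr3:106147554-106167564 on the minus strand. Il4ra is at chr7:125552120-125579474 on the plus strand, Pdcd1lg2 at chr19:29410919-29471161 on the plus strand, and Tgm2 at chr2:158116402-158146436 on the minus strand. Of the 6 genes, 4 matched an entry in the RefSeq promoter table (build GRCm38.p6), and the 250 bases before each start were searched on both strands for TTCNNNNGAA, the spacing of a Stat6-type site, for TTCNNNGAA, the spacing of other STAT sites, for TATAAA and for TTGCNNAA. The promoters of Retnla and Pdcd1lg2 are shown because they hold the Stat6-type spacing, which is in 5.85% of the 32851 RefSeq promoters of the same length. Both sequences are on the plus strand, from chr16:48842359-48842608 for Retnla and chr19:29410669-29410918 for Pdcd1lg2, and run up to the base before the start. Capitals mark the matches to TTCNNNNGAA and TATAAA.
Retnla: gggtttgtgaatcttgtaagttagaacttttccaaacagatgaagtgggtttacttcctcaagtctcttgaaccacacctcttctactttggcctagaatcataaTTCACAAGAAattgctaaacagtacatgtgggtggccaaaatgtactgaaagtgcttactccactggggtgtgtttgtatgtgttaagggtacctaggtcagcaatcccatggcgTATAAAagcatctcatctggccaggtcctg
Pdcd1lg2: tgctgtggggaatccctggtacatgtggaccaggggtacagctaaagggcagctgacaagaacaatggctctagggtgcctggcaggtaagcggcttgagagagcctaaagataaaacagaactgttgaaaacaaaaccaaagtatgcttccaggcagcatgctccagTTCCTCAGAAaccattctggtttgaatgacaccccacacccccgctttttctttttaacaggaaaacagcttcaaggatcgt
In Retnla the match TTCACAAGAA lies at positions -145 to -136 from the start, with TATAAA, which is in 12.4% of promoters, at -30 to -25. A match to TTGCNNAA (9.56% of promoters) is at -134 to -127, next to the first and not overlapping it. In Pdcd1lg2 the match TTCCTCAGAA lies at -82 to -73, and TATAAA was not found. The Chil3 window held only a match to TTCNNNGAA (TTCTTAGAA at -172 to -164, a spacing in 7.02% of promoters), and the Il4ra window, with a GC content of 59.6% against 42.8% for Retnla and a median of 52.4% over all promoters, held no match to the 4 motifs. The GENCODE model of Retnla starts inside the window shown, at base 48842551, so positions counted from that start would differ. The GENCODE model of Il4ra also starts inside its window (chr7:125552021-125552270), at base 125552120. Part of the Il4ra window therefore lies within that gene model. The matches given are matches of letters and not sites shown to be bound.

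Library totals ran from 10.9 to 23.5 M counts. Levels are given in CPM, that is, counts per 1e6 of library size after TMM scaling. Genes were tested by edgeR's quasi-likelihood test, with p-values adjusted by the method of Benjamini and Hochberg over 13246 genes, and called at an adjusted p under 0.05. Brain library 1 stood apart, with the fewest counts of the 13 libraries and 3.79% of them from mitochondrial genes, against 0.410 to 1.23% in the other 12, and earlier results of these data also set brain library 2 apart, so comparisons with brain were repeated without both. The microglia marker P2ry12 was at 8377 ± 2772 CPM in brain, 2457 ± 103 in optic nerve and 141 ± 12.6 in sciatic nerve. Tmem119, another microglia marker, was at 4732 ± 918, 1731 ± 314 and 6.85 ± 1.85 CPM in the same order. Tissue macrophage markers (8 genes, among them Csf1r, Adgre1 and Lyz2) were all detected in each tissue.

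The 6 genes did not move as a block. Retnla was among the most abundant transcripts of sciatic nerve macrophages, low in optic nerve and at 0 counts in brain, whereas Tgm2 had the reverse order between the nerves, with its highest level in optic nerve. Il4ra was higher in both nerves than in brain and was not called between the nerves. Arg1, Chil3 and Pdcd1lg2 were at or near 0 in most libraries of every tissue. Of the 6 genes, 4 had enough counts to be tested (Retnla, Arg1, Il4ra and Tgm2), and Chil3 and Pdcd1lg2 did not. Between sciatic nerve and brain 2 of the 4 were called higher and 1 lower, where 48.4% of all genes were called (24.1% higher, 24.3% lower). Between optic nerve and brain 3 of the 4 were called higher, where 36.9% of all genes were called (19.6% higher), and between the nerves 1 was called higher and 1 lower in sciatic nerve, where 21.8% of all genes were called (10.9% in each direction). The 2 comparisons with brain share the brain libraries. In a bulk library, fewer cells of a type and less RNA per cell cannot be told apart.

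**Figure D1:**
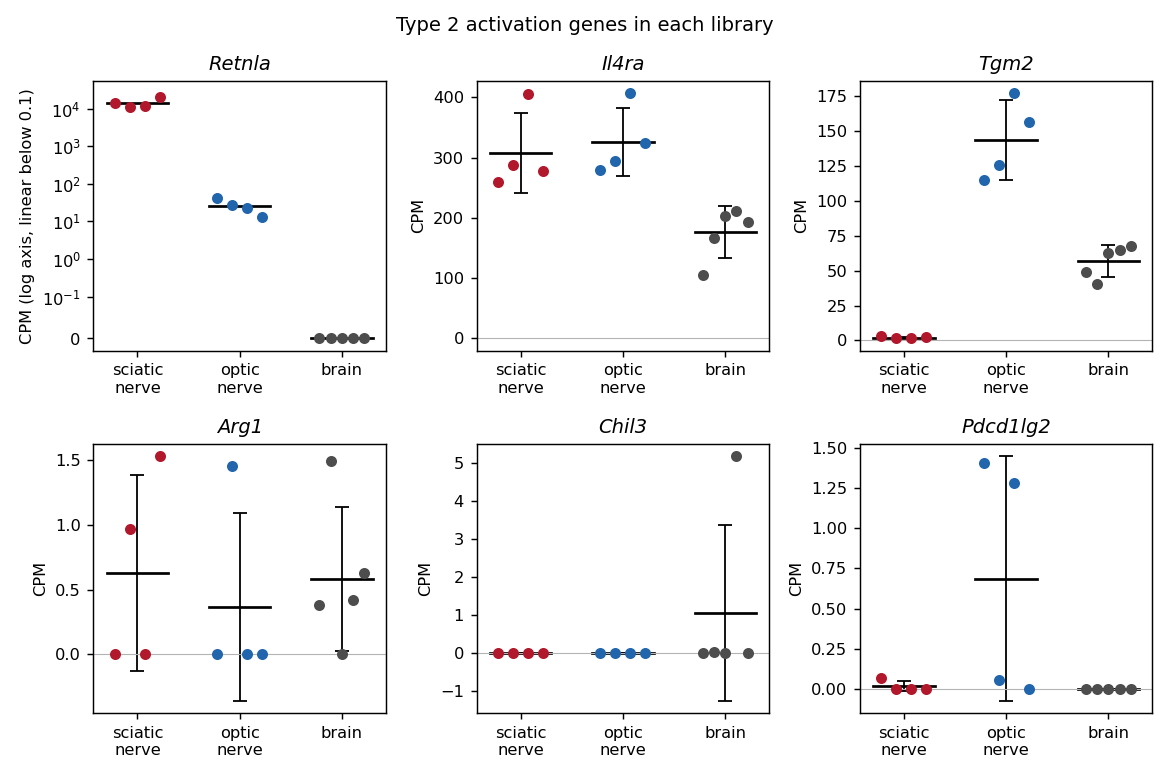
CPM of each of the 6 genes in each library (points; 4 sciatic nerve, 4 optic nerve and 5 brain libraries), with the group mean (line) and, except for Retnla, its SD (bar). The Retnla axis is logarithmic above 0.1, and the panels have their own scales: Retnla is above 10000 CPM in all sciatic libraries, Tgm2 is highest in optic nerve, and Arg1, Chil3 and Pdcd1lg2 stay below 6 CPM in each library.

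Il4ra, the receptor chain shared by interleukin 4 and interleukin 13, was at 259, 288, 406 and 278 CPM in the 4 sciatic nerve libraries, 279, 295, 407 and 324 CPM in the 4 optic nerve libraries, and 105, 167, 204, 212 and 193 CPM in the 5 brain libraries. All nerve libraries lay above all brain libraries, and the nerves overlapped over most of their range. Between sciatic nerve (308 ± 66.6 CPM, SD, n = 4) and brain (176 ± 43.1, n = 5) the log2 fold change was 0.80 (SE 0.20, adjusted p = 0.00468 by edgeR's quasi-likelihood test), or 1.74-fold. Between optic nerve (326 ± 56.9 CPM, n = 4) and brain it was 0.89 (SE 0.20, adjusted p = 0.00372, edgeR), or 1.85-fold. Between the nerves the log2 fold change was -0.09 (SE 0.22, adjusted p = 0.837, edgeR). The lowest brain value came from brain library 1. Without brain libraries 1 and 2, the differences from brain were 0.60 for sciatic nerve (adjusted p = 0.00968, edgeR) and 0.70 for optic nerve (adjusted p = 0.00550).

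The partners of Il4ra differed in how they followed it. Il2rg, the common gamma chain that pairs with Il4ra in the type I receptor, was at 71.9 ± 7.71 CPM in sciatic nerve and 66.7 ± 7.81 in optic nerve against 4.87 ± 2.45 in brain. Its log2 fold changes against brain were 3.89 (SE 0.46, adjusted p = 5.67e-06) and 3.78 (SE 0.46, adjusted p = 1.56e-05, both by edgeR), so the gamma chain differed more from brain than Il4ra did. Il13ra1, which pairs with Il4ra in the type II receptor, was at 311 ± 80.2, 220 ± 38.4 and 424 ± 187 CPM in sciatic nerve, optic nerve and brain. It was lower in optic nerve than in brain (log2 fold change -0.94, SE 0.31, adjusted p = 0.0285, edgeR) and not called for sciatic nerve against brain (-0.44, SE 0.31, adjusted p = 0.250). Brain libraries 1 and 2 were the lowest in brain for Il13ra1, at 172 and 281 CPM against 511 to 597 in the other 3. Without them it was lower in both nerves than in brain, by log2 fold changes of -0.83 for sciatic nerve (SE 0.19, adjusted p = 0.00265) and -1.32 for optic nerve (SE 0.19, adjusted p = 1.37e-04, both by edgeR). Il13ra2, a decoy receptor for interleukin 13, had 0 counts in the 13 libraries.

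Of the ligands, Il4 was called higher in sciatic nerve than in either other tissue, at a low level. It was at 2.48 ± 0.931 CPM in sciatic nerve (144 counts over 4 libraries), 0.176 ± 0.114 in optic nerve (13 counts) and 0.130 ± 0.247 in brain (18 counts). Its log2 fold change was 4.11 against brain (SE 1.10, adjusted p = 0.00639; 6.20 without brain libraries 1 and 2) and 3.77 against optic nerve (SE 1.19, adjusted p = 0.0341, both by edgeR). Il13 had 0 counts in the 13 libraries, which allows up to 0.0512 CPM in sciatic nerve, 0.0409 in optic nerve and 0.0265 in brain (3 counts over the group, for counting error only). Mast cells and basophils are known to make interleukin 4. Their markers summed to 1.44, 1.45, 1.51 and 10.3 CPM in sciatic libraries 1 to 4, with 2 of 7 markers (Ms4a2, Mcpt8) at 0. Il4 was at 1.57, 3.18, 3.38 and 1.80 CPM in the same libraries. The marker sums were 0 in optic nerve and at most 0.0379 CPM in brain. T cell and type 2 innate lymphoid markers summed to 92.9 to 139 CPM in sciatic nerve (with Areg at 75.2 CPM and Cd3e at 0), 11.1 to 33.99 in optic nerve and 35.9 to 61.5 in brain. Their part in the Il4 level was not tested.

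Below the receptor, Jak1 followed Il4ra: it was at 402 ± 24.3 CPM in sciatic nerve and 419 ± 50.3 in optic nerve against 251 ± 87.1 in brain, with log2 fold changes of 0.68 (SE 0.22, adjusted p = 0.0209) and 0.74 (SE 0.22, adjusted p = 0.0176, both by edgeR). Without brain libraries 1 and 2 these were 0.37 and 0.44, and both stayed called (adjusted p = 0.0179 and 0.00889, edgeR). Jak3, the kinase bound by the gamma chain, went the other way in sciatic nerve, at 15.0 ± 7.08 CPM against 54.4 ± 16.5 in optic nerve and 37.2 ± 7.84 in brain. It was lower there than in brain (log2 fold change -1.31, SE 0.33, adjusted p = 0.00406) and than in optic nerve (-1.86, SE 0.34, adjusted p = 0.00101, both by edgeR). Jak2 and Tyk2 were not called in any comparison. Stat6, the transcription factor of the pathway, was at 170 ± 33.6, 172 ± 18.3 and 190 ± 57.6 CPM and was not called in any comparison, with log2 fold changes between -0.16 and -0.02 (SE 0.22 to 0.23, edgeR). This rests on brain libraries 1 and 2, at 109 and 151 CPM, since the other 3 brain libraries (219 to 244 CPM) lay above all nerve libraries (138 to 209 CPM). Without those 2 libraries Stat6 was lower than in brain in sciatic nerve (log2 fold change -0.43, SE 0.15, adjusted p = 0.0271) and in optic nerve (-0.40, SE 0.15, adjusted p = 0.0440, both by edgeR). The transcript of Stat6 says nothing of its phosphorylation, which was not measured.

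Of the 20 genes in the list of the interleukin 4 and 13 pathway, 18 were tested. In sciatic nerve against brain 11 were higher and 2 lower, with a median log2 fold change of 1.30 against -0.09 for all genes tested. In optic nerve against brain 9 were higher and 1 lower, with a median of 0.64 against -0.08, and between the nerves 4 were higher (Il4, Irf4, Klf4 and Pparg) and 2 lower (Jak3 and the phosphatase gene Ptpn6) in sciatic nerve, with a median of 0.09 against 0.00. Without brain libraries 1 and 2 the lower calls were 4 in place of 2 for sciatic nerve against brain (with Stat6 and Il13ra1) and 2 in place of 1 for optic nerve against brain (with Stat6), beside 11 and 8 higher. With all brain libraries, 24.1% of all genes tested were higher in sciatic nerve and 19.6% in optic nerve than in brain. Between the nerves it was 10.9% in each direction.

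**Figure D2:**
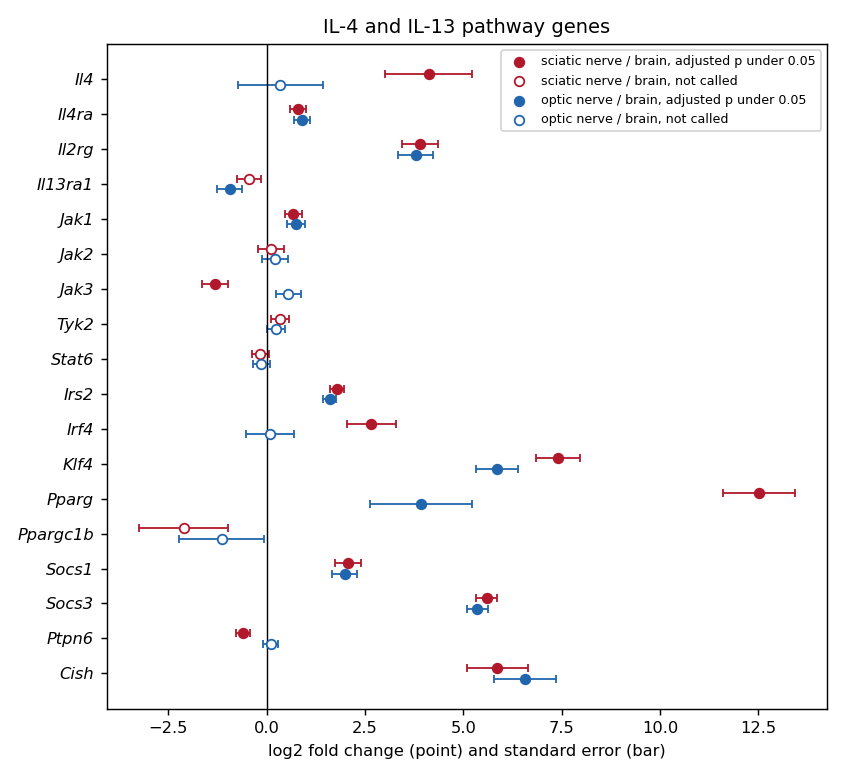
Log2 fold change of each tested gene of the interleukin 4 and 13 pathway against brain (points) with its standard error (bars), for sciatic nerve (red) and optic nerve (blue). Filled points are called at an adjusted p under 0.05 by edgeR; all brain libraries are included; Jak2 and Tyk2 lie near 0, and Pparg at 12.52 is farthest out in sciatic nerve.

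Transcription factors and feedback inhibitors on the pathway list differed in how they stood between the nerves. Pparg, a nuclear receptor of lipid metabolism, was at 39.0 ± 7.91 CPM in sciatic nerve, 0.0889 ± 0.144 in optic nerve (7 counts) and 0 in brain, at least 1469-fold higher in sciatic nerve than the brain floor. Its call for optic nerve against brain (adjusted p = 0.0361, edgeR) was lost without brain libraries 1 and 2 (adjusted p = 0.0650). Irf4, a transcription factor, was at 40.7 ± 10.0 CPM in sciatic nerve against 6.84 ± 6.46 in optic nerve and 6.46 ± 2.41 in brain, and its difference between the nerves was called (log2 fold change 2.57, SE 0.68, adjusted p = 0.0126, edgeR). Klf4, another transcription factor, was at 120 ± 21.2, 40.6 ± 15.8 and 0.742 ± 0.617 CPM and was higher in sciatic nerve than in optic nerve (log2 fold change 1.56, SE 0.46, adjusted p = 0.0238, edgeR). These 3 genes had the same order as Retnla, sciatic nerve above optic nerve, although the means of Irf4 in optic nerve and brain differed by less than their SDs. Socs3, a feedback inhibitor of cytokine signalling, was instead close in both nerves, at 1098 ± 264 and 929 ± 69.6 CPM against 22.6 ± 8.16 in brain. Cish, a further feedback inhibitor, was at 22.6 ± 6.96, 36.6 ± 13.1 and 0.347 ± 0.571 CPM, also called against brain in both nerves and not between them. Without brain libraries 1 and 2, Socs1 of the same list was higher than brain in sciatic nerve (log2 fold change 2.13) and in optic nerve (2.06). It was not called between the nerves (edgeR).

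Genes of the immediate early and dissociation response, which are known to rise when tissue is taken apart into cells, were higher in both nerves than in brain for 18 of 18 genes (edgeR), with median log2 fold changes of 6.12 and 5.88. Between the nerves 7 of the 18 were higher in sciatic nerve and none lower, with a median of 0.48. Of all genes tested, 24.1% were higher in sciatic nerve and 19.6% in optic nerve than in brain. Between the nerves it was 10.9% in each direction. Ier3, the gene of this list with the smallest adjusted p, was at 2503 ± 401, 507 ± 34.4 and 5.99 ± 0.794 CPM. The part of this response in the differences of Il4ra, Socs3, Cish, Klf4 and Retnla from brain was not tested.

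Retnla, a small secreted cysteine-rich protein of the resistin family, was at 14268, 10883, 11581 and 21001 CPM in the 4 sciatic nerve libraries, at 41.2, 28.2, 23.1 and 13.3 CPM in the 4 optic nerve libraries, and at 0 counts in the 5 brain libraries. The 3 tissues did not overlap: the lowest sciatic library was 264-fold above the highest optic library, and the lowest optic library held 224 counts where brain held none. Libraries did not overlap for 41.3% of genes in sciatic nerve against brain, 31.8% in optic nerve against brain and 29.9% between the nerves. In the sciatic libraries Retnla took 0.936 to 1.73% of all counts and ranked between 4th and 8th of all genes by CPM. Per kilobase of exon (599 bases), it ranked between 1st and 3rd.

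Between the nerves the log2 fold change of Retnla was 9.09 (SE 0.45, adjusted p = 9.04e-08, edgeR), or 546-fold, from 14433 ± 4615 CPM (SD, n = 4) to 26.4 ± 11.6 CPM (n = 4). Against brain, where the floor of 3 counts over the group is 0.0265 CPM, Retnla was at least 544316-fold higher in sciatic nerve (adjusted p = 7.32e-10, edgeR), and at least 410425-fold higher in the lowest sciatic library. It was at least 996-fold higher in optic nerve than in brain (adjusted p = 1.64e-07, edgeR), and at least 499.8-fold in the lowest optic library. The optic level is therefore low beside sciatic nerve and yet rests on 224 to 818 counts per library.

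Retnla varied more between sciatic libraries than most genes at 1000 CPM or more there, although its own mean was 14433 CPM. Its coefficient of variation was 32.0%, against a median of 12.3% over the 149 genes at 1000 CPM or more in sciatic nerve, and 3 of these genes had a higher one. Mgl2, the gene with the pattern most like that of Retnla, had a coefficient of variation of 7.74% in the same libraries. Sciatic library 4 held the highest Retnla value, 1.93-fold above the lowest.

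Other members of the resistin family did not share this abundance. Retnlg, a neighbour of Retnla on the same chromosome (chr16:48872621-48874496), was at 1.64 ± 0.277 CPM in sciatic nerve, 0.464 ± 0.105 in optic nerve and 0 in brain. It was higher in both nerves than in brain (adjusted p = 3.81e-05 and 3.91e-04, edgeR). Retn, the resistin gene of fat cells, was at 0.619 ± 0.614 CPM in sciatic nerve and at 0 counts in the other tissues, and Retnlb had 1 count in all. None of the 550 windows of 50 bases in the Retnla transcripts occurs in a transcript of another gene (GENCODE M21), nor do windows of Retnlg, Retn or Retnlb.

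Summed markers of 7 other cell types were higher in every sciatic library than in any optic nerve or brain library, beside Retnla. They were those of fibroblasts, adipocytes, monocytes, dendritic cells, Schwann cells, mast cells with basophils, and T cells with type 2 innate lymphoid cells. Not all single markers followed their sum. Called higher in sciatic than optic nerve (edgeR) were 5 of 6 tested fibroblast markers, 2 of 2 of adipocytes and 2 of 4 of monocytes. It was 1 of 6 for dendritic cells and 2 of 3 for Schwann cells, beside 10.9% of all genes tested. Against brain it was 6 of 6, 2 of 2, 4 of 4, 6 of 6 and 2 of 3, beside 24.1%. No mast cell or basophil marker was tested. In the set of T cells with type 2 innate lymphoid cells, 6 of 8 markers had means under 1 CPM in sciatic nerve, where Areg (75.2 CPM) and Il1rl1 (42.9 CPM) led. Of its 3 tested markers, 2 were called higher and 1 lower in sciatic nerve, against brain and against optic nerve alike (edgeR). Il7r ran opposite to the sum, with means of 0.565 CPM in sciatic nerve, 8.62 in optic nerve and 37.4 in brain. Fibroblast markers (8 genes) summed to 197 to 412 CPM in sciatic nerve, 12.5 to 41.3 in optic nerve and 2.27 to 7.65 in brain. In sciatic libraries 1 to 4 the fibroblast sums were 412, 210, 270 and 197 CPM, lowest in library 4, where Retnla was highest. Adipocyte markers (7 genes, with Plin1 at 0) summed to 13.8, 7.96, 8.49 and 17.6 CPM in the same libraries, mostly from Fabp4, which is the order of Retnla in all 4, and to at most 1.45 CPM in optic nerve and 0.227 in brain. Retn, which is part of that sum, had 10, 1, 4 and 22 counts and the same order. In sciatic nerve 5 of the 7 adipocyte markers had means under 1 CPM. The other sums of the 7 sets had other orders in these libraries. They were 444, 547, 619 and 525 CPM for monocytes and 401, 462, 389 and 357 for dendritic cells. Schwann cell markers gave 1033, 1179, 1085 and 1176 CPM. T cells with type 2 innate lymphoid cells gave 92.9, 109, 135 and 139 CPM. Mast cells with basophils gave 1.44, 1.45, 1.51 and 10.3 CPM. With 4 libraries no relation was tested. Monocyte markers (8 genes) summed to 444 to 619 CPM, 10.4 to 29.1 and 2.81 to 10.3, most of it in sciatic nerve from Ccr2 (458 CPM). Dendritic cell markers (7 genes) summed to 357 to 462 CPM, 16.7 to 62.6 and 3.27 to 7.63, most of it in sciatic nerve from Cd209a (358 CPM). Schwann cell markers (6 genes, with Sox10 at 0 in sciatic nerve) summed to 1033 to 1179 CPM, 528 to 741 and 339 to 751, most of it from Pmp22 (1107 CPM in sciatic nerve). In sciatic nerve 3 of these 6 markers had means under 1 CPM. Eosinophil markers (7 genes) summed to 2.88 to 6.71 CPM in sciatic nerve, with Ccr3 at 2.85 CPM and Epx, Ear1 and Ear6 at 0. Their sums were higher in the other tissues, at 37.7 to 53.1 and 11.1 to 49.8 CPM, most of it from Siglecf. In optic nerve the markers other than Siglecf had means under 1 CPM, so that the mean of Ccr3 was lower there than in sciatic nerve. The part of these cells in the Retnla level was not tested.

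Within optic nerve, the order of the libraries by Retnla differed from that of several other genes that are high in sciatic nerve. Retnla was lowest in optic library 4, at 13.3 CPM, and highest in library 1, at 41.2. The mannose receptor Mrc1 (65.0, 39.3, 25.9 and 78.4 CPM in libraries 1 to 4), the lectin Mgl2 (11.1, 8.01, 14.3 and 21.6) and the scavenger receptor Cd163 (26.3, 21.1, 16.0 and 54.7) were all highest in library 4. The eosinophil-attracting chemokine Ccl24 (39.1 CPM) and the coagulation factor F13a1 (274 CPM) were also highest there. Cd36, a scavenger receptor, was highest in library 1, as Retnla was (20.3, 12.4, 5.14 and 13.1 CPM), and so was the sum of the monocyte markers (29.1, 16.6, 10.4 and 20.9 CPM). Ccr2, the monocyte marker with the highest mean in optic nerve, was instead highest in library 4 (11.2, 6.51, 5.81 and 14.4 CPM). These genes were set side by side after their values were seen, and with 4 libraries no relation was tested.

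**Figure D3:**
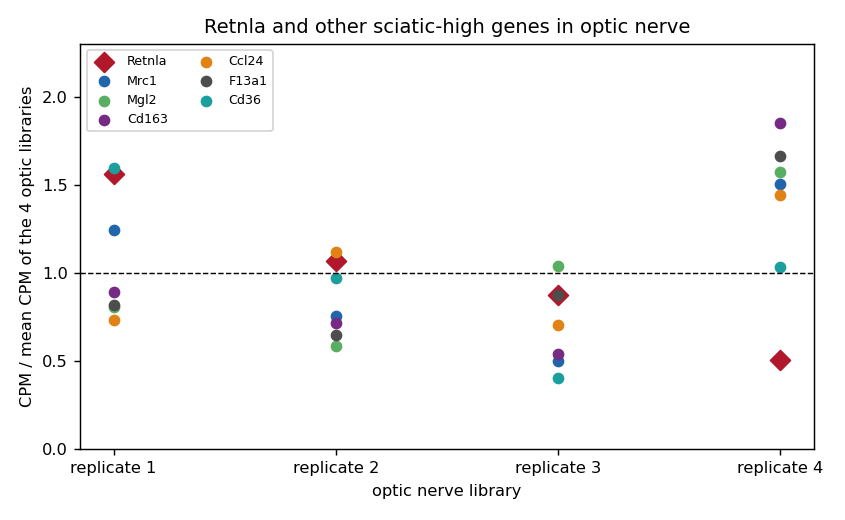
CPM of Retnla (diamonds) and 6 other genes that are high in sciatic nerve (circles) in each of the 4 optic nerve libraries, divided by the mean of the gene over the 4 libraries. In library 4 Retnla is at its lowest while Mrc1, Mgl2, Cd163, Ccl24 and F13a1 are at their highest, and Cd36 is highest in library 1, as Retnla is.

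Set beside other genes of alternative activation, Retnla had the steepest drop from sciatic to optic nerve. Its optic level was 0.183% of its sciatic level, the lowest of 19 genes (the 16 tested of the list of other alternative activation genes, with Retnla, Il4ra and Tgm2). Mgl2, Clec10a (both galactose-binding lectins) and Cd36 followed at 0.372%, 0.375% and 0.387%, then Cd163, Ccl24, Mrc1 and F13a1 at 2.23 to 3.34%. At the other end stood Il4ra at 106%, the chemokine Ccl22 at 382%, the lipoxygenase Alox15 at 450% and Tgm2 at 6839%. The percentages describe group means, and differences among the first 4 genes were not tested. Of the 16 listed genes, 15 were higher in sciatic nerve than in brain and 15 in optic nerve than in brain, with none lower, and medians of 7.74 and 5.76. Between the nerves 10 were higher and 1 (Flt1) lower in sciatic nerve, with a median of 2.54, and 10 higher and 4 lower without brain libraries 1 and 2. With all brain libraries, 24.1% of all genes tested were higher in sciatic nerve and 19.6% in optic nerve than in brain. Between the nerves it was 10.9% in each direction. This list was drawn up with earlier results known and is not independent evidence of its direction.

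**Figure D4:**
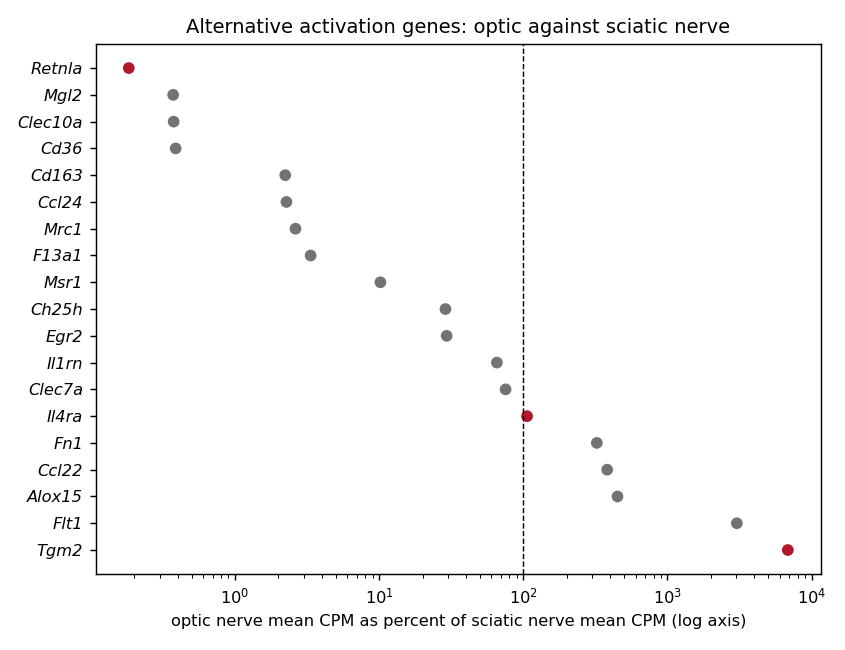
Mean CPM in optic nerve as a percent of mean CPM in sciatic nerve, on a log axis, for 16 genes of alternative activation (grey) and for Retnla, Il4ra and Tgm2 (red). Retnla is lowest at 0.183%, Il4ra lies beside the dashed line of equal levels (100%) and Tgm2 is highest at 6839%.

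Genes of classical activation were present in the same libraries. Of 10 tested of 12 listed, 5 were higher in sciatic nerve than in brain and 1 (Irf5) was lower, and 4 were higher in optic nerve than in brain. Without brain libraries 1 and 2 the higher calls were 6 in each nerve, beside 1 lower call each. The median log2 fold changes were 2.22 and 2.88 over all brain libraries, and 4.08 and 6.40 without those 2. For all genes tested the medians were -0.09 and -0.08 with all brain libraries. Between the nerves 4 of the 10 were higher and 1 lower in sciatic nerve (2 lower without brain libraries 1 and 2). Of all genes tested, 10.9% were called in each direction between the nerves. The cytokine gene Il1b was at 7095 ± 555 CPM in sciatic nerve, 1946 ± 368 in optic nerve and 3.35 ± 1.85 in brain, and Tnf at 1677 ± 247, 1346 ± 243 and 1.50 ± 0.691. Nos2, the nitric oxide synthase that competes with Arg1 for arginine, had 4 counts in sciatic nerve, 1 in optic nerve and 0 in brain. Retnla was thus high in libraries that also held the transcripts of Il1b and Tnf, and neither arginine enzyme was abundant there. The part of the immediate early and dissociation response in the differences of Il1b and Tnf from brain was not tested.

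Chil3, a secreted chitinase-like lectin, had 0 counts in the 8 nerve libraries, which allows up to 0.0512 CPM in sciatic nerve and 0.0409 in optic nerve. In brain it had 0, 1, 0, 137 and 0 counts, so that 137 of 138 counts came from library 4 (5.19 CPM). With no low-count filter, over 27074 genes, its difference from brain was not called (adjusted p = 0.0533 for sciatic nerve and 0.0595 for optic nerve, edgeR). Neutrophils are another known source of Chil3, and their markers S100a8, Ly6g, Mpo, Elane and Mmp8 were at 0 in each tissue. S100a9, Camp, Ngp and Ltf were at 0 in optic nerve but had counts in brain. There 10 of the 11 markers had means under 1 CPM. The 11 neutrophil markers summed to 178 to 295 CPM in brain, mostly from Csf3r (233 CPM), and their part in the Chil3 counts was not tested. Of the Chil3 transcript windows of 50 bases, 29.4% (438 of 1490) occur in another gene, 275 of them in its near copy Chil4, which itself had 0 counts. How the authors treated reads that fit both is not stated in the sources used, so the 0 of Chil3 is uncertain to that extent.

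Arg1, which splits arginine into ornithine and urea, was detected in some libraries of each tissue and absent from others. The counts were 0, 14, 0 and 23 in sciatic nerve, 0, 27, 0 and 0 in optic nerve, and 5, 42, 0, 11 and 15 in brain. The 3 tissues overlapped fully, at 0.625 ± 0.758, 0.363 ± 0.726 and 0.583 ± 0.557 CPM, and each SD was larger than the differences between the means. None of the 3 comparisons was called: the log2 fold change was 0.09 for sciatic nerve against brain (SE 1.60, adjusted p = 0.968), -0.68 for optic nerve against brain (SE 1.63, adjusted p = 0.772) and 0.77 between the nerves (SE 1.72, adjusted p = 0.810, all by edgeR). With standard errors of this size, a change of several fold was not detectable at this depth.

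Several other genes of arginine and polyamine metabolism had more counts than Arg1. Of 10 tested of 12 listed, sciatic nerve against brain gave 6 higher and 1 lower (Srm), and optic nerve against brain gave 6 higher. Between the nerves 1 (Oat) was higher in sciatic nerve and 3 (Odc1, Ass1 and Srm) were higher in optic nerve. The medians were 0.85, 1.13 and 0.01. Without brain libraries 1 and 2, sciatic nerve against brain gave 5 higher in place of 6. With all brain libraries, 24.1% of all genes tested were higher in sciatic nerve and 19.6% in optic nerve than in brain. Between the nerves it was 10.9% in each direction. Odc1, which turns ornithine into the polyamine putrescine, was at 37.2 ± 4.15 CPM in sciatic nerve, 104 ± 9.96 in optic nerve and 7.29 ± 2.24 in brain. Its highest level was in optic nerve (log2 fold change of sciatic against optic nerve -1.48, SE 0.23, adjusted p = 2.21e-04, edgeR). Oat, which moves ornithine to other fates, was highest in sciatic nerve, at 306 ± 46.5 CPM against 196 ± 20.7 and 81.6 ± 19.1. Arg2, the mitochondrial arginase, was at 2.37 ± 2.19, 1.68 ± 1.63 and 0.199 ± 0.226 CPM, higher in sciatic nerve than in brain (log2 fold change 3.49, SE 1.29, adjusted p = 0.0363, edgeR). The sciatic libraries ran from 0.131 to 4.50 CPM. Its exons overlap those of Vti1b on the opposite strand, which had 18317 counts over all libraries. The strand setting of the counting is not stated in the sources used, so the Arg2 level is uncertain to that extent.

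Tgm2, which cross-links proteins between glutamine and lysine residues, was at 2.88, 1.94, 1.44 and 2.13 CPM in the 4 sciatic nerve libraries (20 to 44 counts), 115, 125, 177 and 156 CPM in the 4 optic nerve libraries, and 48.7, 40.8, 62.9, 65.1 and 67.5 CPM in the 5 brain libraries. No libraries overlapped between any of the 3 tissues, and the order was optic nerve, brain, sciatic nerve. Sciatic nerve (2.10 ± 0.596 CPM) was lower than brain (57.0 ± 11.6) with a log2 fold change of -4.76 (SE 0.26, adjusted p = 1.28e-09, edgeR), or 27.0-fold. Optic nerve (143 ± 28.6 CPM) was higher than brain by 1.33 (SE 0.21, adjusted p = 1.75e-04, edgeR), or 2.51-fold. Sciatic nerve was lower than optic nerve by 68.0-fold (log2 fold change -6.09, SE 0.28, adjusted p = 1.14e-09, edgeR), the 17th smallest p of the 13246 genes in that comparison. Of the 4 tested genes, only Tgm2 was called lower in any comparison.

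The exons of Tgm2 overlap those of Rprd1b, a gene on the opposite strand, and the strand setting of the counting is not stated in the sources used. Rprd1b was at 22.8 ± 4.35, 15.9 ± 3.58 and 47.5 ± 13.1 CPM in sciatic nerve, optic nerve and brain. It was lowest in optic nerve, where Tgm2 was highest. None of the 3547 Tgm2 windows of 50 bases occurs in another gene's transcripts.

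The tested relatives of Tgm2 had their highest means in sciatic nerve, where Tgm2 was lowest, and like Tgm2 were higher in optic nerve than in brain. F13a1, which encodes the A chain of coagulation factor XIII, a transglutaminase as well, was at 4916 ± 824 CPM in sciatic nerve, 164 ± 74.5 in optic nerve and 1.57 ± 3.25 in brain (sciatic against optic nerve log2 fold change 4.90, SE 1.04, adjusted p = 0.00284, edgeR). Tgm1, a transglutaminase known from skin, was at 16.2 ± 4.98, 7.50 ± 3.25 and 1.59 ± 1.31 CPM and was higher in both nerves than in brain (adjusted p = 0.00128 and 0.0196, edgeR), with no call between the nerves (adjusted p = 0.315). Tgm3, Tgm4 and Tgm5 were not tested for want of counts. Per kilobase of exon, F13a1 was at 730 ± 122 CPM and Tgm2 at 0.455 ± 0.129 in sciatic nerve. In optic nerve the 2 genes were at 24.4 ± 11.1 and 31.1 ± 6.20 CPM per kilobase and differed by less than the SD of F13a1.

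Pdcd1lg2, which encodes the ligand PD-L2 of the inhibitory receptor PD-1, was detected mainly in optic nerve. Its counts were 28, 1, 23 and 0 in the optic nerve libraries, 1, 0, 0 and 0 in the sciatic nerve libraries, and 0 in each brain library. Optic libraries 1 and 3 (1.41 and 1.28 CPM) lay above all others, and optic libraries 2 and 4 were as low as the sciatic libraries. With no low-count filter, over 27074 genes of which 8.83% were called higher, Pdcd1lg2 was higher in optic nerve than in brain (log2 fold change 6.70, SE 1.76, adjusted p = 0.0121, edgeR). It stayed called when each optic library was left out, with log2 fold changes of 6.07 to 7.13 and adjusted p of 0.00760 to 0.0315. Sciatic and optic nerve were not called apart (log2 fold change -4.89, SE 1.86, adjusted p = 0.119, edgeR). The gene contains the antisense gene A930007I19Rik without exon overlap, which was at 10.7 ± 3.32 CPM in optic nerve, 2.42 ± 2.15 in sciatic nerve and 1.93 ± 1.57 in brain.

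Genes around Pdcd1lg2 were better counted and were also highest in optic nerve. Cd274, its neighbour on chromosome 19, which encodes PD-L1, was at 6.54, 13.1, 7.27 and 2.66 CPM in sciatic nerve, 55.1, 48.2, 111 and 40.5 in optic nerve and 5.60 to 13.5 in brain. All optic libraries lay above all others, with a log2 fold change of 2.84 against brain (SE 0.41, adjusted p = 9.52e-05) and -3.11 for sciatic against optic nerve (SE 0.46, adjusted p = 1.30e-04, both by edgeR). Pdcd1, the gene of the receptor PD-1, was at 114 ± 19.95 CPM in optic nerve against 5.05 ± 2.32 in brain and 0.140 ± 0.128 in sciatic nerve (8 counts). It was higher in optic nerve than in brain (log2 fold change 4.50, SE 0.40, adjusted p = 6.30e-07) and lower in sciatic nerve than in optic nerve (-9.63, SE 0.62, adjusted p = 2.86e-08, both by edgeR). T cells are the textbook site of PD-1. In optic nerve the 8 markers of T cells and type 2 innate lymphoid cells summed to 11.1 to 33.99 CPM, with Il7r at 8.62 and Areg at 7.72 CPM, Cd3d at 5 counts and Cd3e at 0, and their part in the Pdcd1 level was not tested. Rgmb, another partner of PD-L2, was instead highest in brain, at 115 ± 49.2 CPM against 17.9 ± 2.91 and 22.8 ± 5.21.

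**Figure D5:**
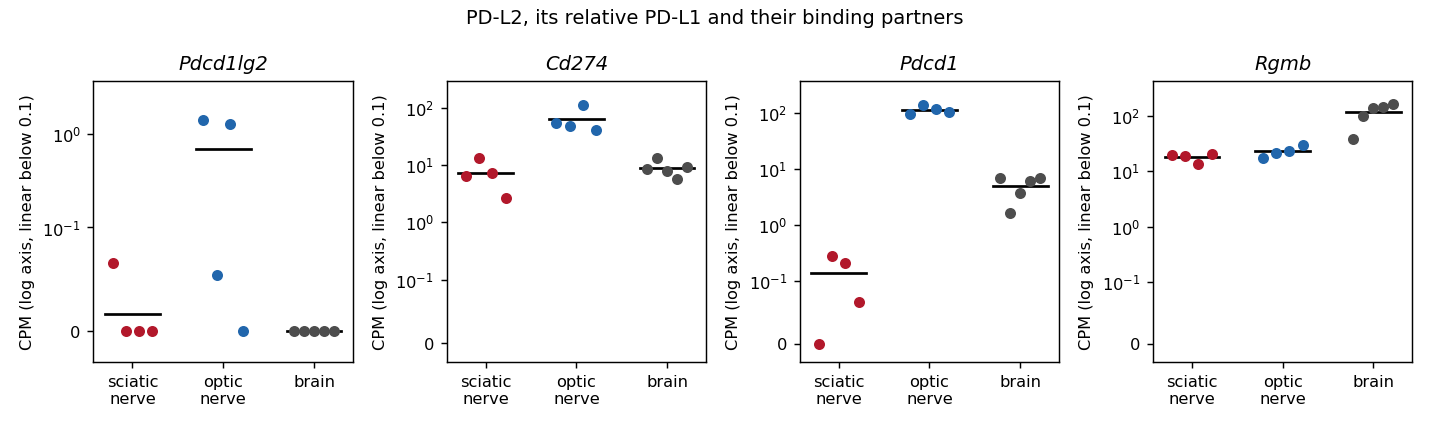
CPM of Pdcd1lg2 (PD-L2), Cd274 (PD-L1) and their binding partners Pdcd1 (PD-1) and Rgmb in each library (points) with the group mean (line), on axes that are logarithmic above 0.1 CPM. Cd274 and Pdcd1 are highest in all 4 optic nerve libraries, Pdcd1lg2 exceeds 1 CPM in 2 of them, and Rgmb is highest in brain.

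Of the 18 relatives and binding partners of the 6 genes, 9 were tested. In sciatic nerve against brain 5 were higher and 2 lower (median log2 fold change 3.35), in optic nerve against brain 6 were higher and 2 lower (median 3.00), and between the nerves 1 was higher and 2 lower in sciatic nerve (median 0.50). Without brain libraries 1 and 2 the counts for sciatic nerve against brain were 4 higher and 3 lower. With all brain libraries, 24.1% of all genes tested were higher in sciatic nerve and 19.6% in optic nerve than in brain. Between the nerves it was 10.9% in each direction.

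The order of the 6 genes within a tissue was read per kilobase of exon, since the transcripts differ in length from 599 bases (Retnla) to 6002 (Il4ra). In sciatic nerve Retnla stood at 24095 ± 7705 CPM per kilobase, followed by Il4ra at 51.2 ± 11.1 and Tgm2 at 0.455 ± 0.129. Arg1 at 0.281 ± 0.340 did not differ from Tgm2 beyond its spread. In optic nerve Il4ra (54.4 ± 9.47), Retnla (44.1 ± 19.4) and Tgm2 (31.1 ± 6.20) were the closest of the 3 tissues to each other, and Retnla did not differ from either beyond its SD. In brain Il4ra (29.4 ± 7.19) lay above Tgm2 (12.4 ± 2.53). Retnla thus made up 99.8% of the summed level of the 6 genes per kilobase in sciatic nerve, 33.3 ± 12.7% in optic nerve and 0% in brain.

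For each tested gene of the 6, the genes with the nearest pattern were found by the root mean square difference of log2 CPM over the 13 libraries, after each gene was centred on the mean of its 3 tissue means. For Retnla they were Mgl2 (1.16), the chemokine Cxcl1 (1.62) and Cd163 (1.75). For Il4ra they were the translation factor Eif4g2 (0.168), the splicing factor Sf1 (0.190) and Jak1 (0.201), so that a kinase of its own pathway was among the 3. For Tgm2 they were Afp (0.571), the inhibitory receptor Havcr2 (0.583) and the lactate dehydrogenase subunit Ldhb (0.617). For Arg1 the nearest, 1700123M08Rik (1.13), Gm2531 (1.18) and Aldh5a1 (1.20), were at or near 1 CPM or below in each tissue, as Arg1 was. Likeness of pattern here rests on 3 tissues.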

How the data were processed

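The table deposited by the authors holds raw read counts by gene symbol. Per the submitters' processing notes, they used STAR, the mm10 genome and featureCounts 1.5.1. The version of STAR, the annotation, the strand setting and the handling of reads with several positions are not stated in the sources used. Nerve columns carry the tissue initials and replicate numbers. The 5 other columns, whose prefix is not explained, were taken as brain because brain is the only group of 5, so brain library numbers are column numbers. The number of per-sample columns left unused is 0.

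In R 4.3.3 with edgeR 4.0.16, filterByExpr by group (minimum count 10) kept 13246 of 48587 symbols. Library sizes were scaled by TMM, and 1 quasi-likelihood fit over the 13 libraries gave the 3 contrasts, with standard errors from the fit and p-values adjusted by Benjamini and Hochberg's method. Log2 CPM used a prior count of 2. The fit was tested on simulated counts with changes of known size. It recovered 19 to 25% of log2 changes of 1 and 60 to 65% of log2 changes of 2. Of the genes it called, 0 to 2.33% had no change put in. A gene that was not called may therefore still differ. Alternatives were RLE size factors, DESeq2 1.42.0, no low-count filter, only the 2 tissues compared, a replicate block and libraries left out. Library totals ran from 10.9 to 23.5 M counts, and a count of 0 over a group allows up to 3 counts; such floors cover counting error only, since reads are not independent molecules.

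The 6 genes, the gene lists and the tests were chosen with earlier results of these data known. Genes named beside the 6 were, of each list, up to 4 with the smallest adjusted p in a comparison, the receptors, kinases and Stat6 of the pathway, and the 3 nearest patterns; any others were named after their values were seen. Exon lengths are unions of GENCODE M21 exons, present for 96.8% of tested genes. The microarray and single-cell libraries were not analysed here.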

Additional observations from a re-analysis of the deposited data

Results flagged for a closer look

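Libraries far from the rest of their group were sought for the 6 genes in each tissue by the gap between the extreme library and its nearest neighbour, set against the range of the group. Of 14 groups checked, 3 held such a library, where chance flags about 1 in 20 for continuous values. That rate does not apply to these sparse counts: in 2 of the 3 a single library was above 0, which by itself sets the gap to the whole range, so the number is not read as an excess. Arg1 was at 1.45 CPM (27 counts) in optic nerve library 2 and at 0 in the other 3 optic libraries. Chil3 was at 5.19 CPM (137 counts) in brain library 4 and between 0 and 0.0356 CPM in the other 4 brain libraries. Pdcd1lg2 was at 0.0654 CPM in sciatic nerve library 1, which is 1 count, and at 0 in the other 3.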

How the results depend on the processing

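Retnla, Tgm2 and, against brain, Il4ra kept their direction and their call under all alternatives run (18 for each comparison with brain, 19 between the nerves). The counts of genes called stayed within 1.5 times the main count. Arg1, not called under any alternative, changed direction with the libraries left out: its log2 fold change ran from -0.86 to 0.80 for sciatic nerve against brain, -6.49 to 0.031 for optic nerve against brain (0.070 without brain libraries 1 and 2 together) and -0.16 to 6.57 between the nerves when 1 library was left out at a time. The log2 fold change of Il4ra between the nerves, also not called, ran from -0.25 to 0.039. The Arg1 values of -6.49 and 6.57 came without optic library 2, the 1 optic library with Arg1 counts. The cause of the other changes was not tested.

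The labels do not say whether nerve libraries of the same replicate number were paired. Same-numbered libraries correlated at -0.07 to 0.02 in their deviations from the tissue means, and 1 of 4 sciatic libraries correlated best with its own number. With so few libraries this cannot decide whether they came from the same animals. With the replicate block, 2796 genes were called between the nerves, with log2 fold changes of 9.09 for Retnla, -6.11 for Tgm2, -0.12 for Il4ra and 1.74 for Arg1, and no call of the 4 genes changed. Brain columns carry no label numbers, so the block was fitted to the nerve libraries alone. Depth limits Arg1, Chil3 and Pdcd1lg2, which rest on 0 to 137 counts per library.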
